A study of Homo sapiens with 8 samples.

Results

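The genes described here encode the factors that start and carry out protein synthesis on cytosolic ribosomes. They were taken as the protein-coding rows of the count tables whose symbol begins EIF1 to EIF6, EEF1 or EEF2, without the eIF2 kinases and the eEF1A lysine methyltransferases, and the row with the highest count stood for each symbol. This gave 62 of 46427 rows in the NCI-H1944 table and 62 of 61271 rows in the NCI-H647 table, with 61 symbols in both. EEF1AKNMT, a methyltransferase of eEF1A that the NCI-H647 table lists under its older symbol METTL13, was a member in NCI-H1944 alone, and the readthrough locus EEF1E1-BLOC1S5 in NCI-H647 alone.

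The RNA came from a pair of established human lung cancer lines, NCI-H1944 and NCI-H647, both labelled WT in genotype. In each line, 2 libraries came from cells given 100 nM BAY-1217389 (MPS1i), which inhibits MPS1, a kinase of the spindle checkpoint, and 2 from cells given DMSO, the vehicle. Exposure lasted 48 hours, after which the drug was removed and the cells were grown for another 24 hours, so the libraries show the state after a pulse of inhibitor and not during it. The NCI-H1944 libraries were made from poly(A) RNA and the NCI-H647 libraries after depletion of ribosomal RNA, so that line and kit cannot be told apart in any level set between them. Whether replicates were separate cultures is not stated in the labels, and p-values therefore measure only the spread between these libraries, which may be technical.

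Initiation brings the small ribosomal subunit to a start codon. eIF2 delivers the initiator tRNA and is recharged with GTP by eIF2B, the eIF4 factors open the capped end of the mRNA, eIF3 holds the assembly together, and eIF1, eIF1A, eIF5 and eIF5B control start codon choice and the joining of the large subunit. In elongation, eEF1A brings each aminoacyl-tRNA, the eEF1B proteins recharge eEF1A, and eEF2 moves the ribosome along the mRNA. Several of these mRNAs, with those of the ribosomal proteins, carry a run of pyrimidines at the capped end, the terminal oligopyrimidine (TOP) motif, through which their translation answers to mTORC1 and LARP1.

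The sequences around the annotated transcription starts are shown because members with and without a run of pyrimidines near the start are compared. RefSeq's table of 300-base promoters (GRCh38.p14) matched 51 of the 63 symbols found in either table. A TOP-like tract was taken as a C followed by at least 5 pyrimidines, wholly within the window from 10 bases before to 20 bases after the annotated start, on the strand of the gene. A tract in this window need not be a TOP motif at the capped end. That of EIF1 lies wholly before the annotated start, and that of EIF4B begins 10 bases after it. The tract is in capitals below, and in windows that hold none all letters are lower case. The first 6 genes encode the main eEF1A, eEF2, eIF4B, eIF2D, an eIF3 subunit and the gamma subunit of eIF2, and fell in both lines. EIF1 stands after them as a gene with a tract that went opposite ways in the lines. EIF5, EIF4E and EEF2K hold no tract: EIF5 rose in both lines, EIF4E went opposite ways and EEF2K fell in both. Their calls in NCI-H1944 were near the threshold (adjusted p from 0.0328 to 0.0397 by the edgeR test). Each was lost without the filter on low counts.
EEF1A1, chr6:73521013-73521042, minus strand: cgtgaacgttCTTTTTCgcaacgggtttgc
EEF2, chr19:3985444-3985473, minus strand: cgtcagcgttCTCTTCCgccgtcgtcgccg
EIF4B, chr12:53006446-53006475, plus strand: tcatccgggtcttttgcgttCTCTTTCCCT
EIF2D, chr1:206612446-206612475, minus strand: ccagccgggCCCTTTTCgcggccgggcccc
EIF3F, chr11:7987327-7987356, plus strand: cttccgCCTCCTTCTTTCTCgacaagatgg
EIF2S3, chrX:24054946-24054975, plus strand: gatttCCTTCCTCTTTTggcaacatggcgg
EIF1, chr17:41688875-41688904, plus strand: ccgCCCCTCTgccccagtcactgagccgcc
EIF5, chr14:103334227-103334256, plus strand: ggcgttgttcagtcagagcgagaacattcc
EIF4E, chr4:98929114-98929143, minus strand: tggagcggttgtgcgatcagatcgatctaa
EEF2K, chr16:22206268-22206297, plus strand: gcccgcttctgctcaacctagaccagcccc

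Library totals ran from 43067647 to 43661342 counts with MPS1i and from 38904473 to 39332931 with DMSO in NCI-H1944, and from 13358514 to 13563037 with MPS1i and from 17243487 to 19550859 with DMSO in NCI-H647. The translation factor genes are abundant, with a median of 143 CPM (TMM-scaled counts per 1000000) among tested members against 15.5 CPM among all genes tested in NCI-H1944, and 129.5 against 19.1 CPM in NCI-H647, so small changes in them are measured more precisely than in most genes. The lung epithelial markers NKX2-1 and SFTPB were at 0 in every NCI-H1944 library, and 5 of the 8 epithelial markers reached 10 counts in every NCI-H647 library. Their summed level was 4793 to 4952 CPM with MPS1i and 4128 to 4136 CPM with DMSO in NCI-H1944, and 627 to 631 CPM with MPS1i and 869 to 889.8 CPM with DMSO in NCI-H647. Summed squamous markers were 4.36 to 5.07 CPM with MPS1i and 2.11 to 2.89 CPM with DMSO in NCI-H1944, and 4.94 to 5.88 CPM with MPS1i and 3.55 to 4.25 CPM with DMSO in NCI-H647. Fibroblast and endothelial markers summed to 7.58 to 8.74 CPM with MPS1i and 4.88 to 5.24 CPM with DMSO in NCI-H1944, and to 46.9 to 50.3 CPM with MPS1i and 59.5 to 65 CPM with DMSO in NCI-H647. Leukocyte markers stayed below 1 CPM in sum in every library, with none of the 4 at 10 counts in every library of either line. The part of these marker differences in the results was not tested.

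After MPS1i the translation factor genes held a smaller share of the transcriptome in both lines. In NCI-H1944 they took 2.28% and 2.3% of all counts in the MPS1i libraries, against 2.72% in both DMSO libraries. In NCI-H647 they took 2.4% and 2.36% in the MPS1i libraries, against 3.25% in both DMSO libraries. EEF1A1, the most abundant member, made up 35.6% and 35.5% of the members' counts in the MPS1i libraries of NCI-H1944 and 36.4% and 36.1% in its DMSO libraries. In NCI-H647 it made up 44% and 43.6% in the MPS1i libraries and 52.4% and 52.5% in the DMSO libraries. In bulk RNA, fewer cells with a transcript and less of it per cell cannot be told apart, and a share says nothing about the total RNA per cell.

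**Figure D1:**
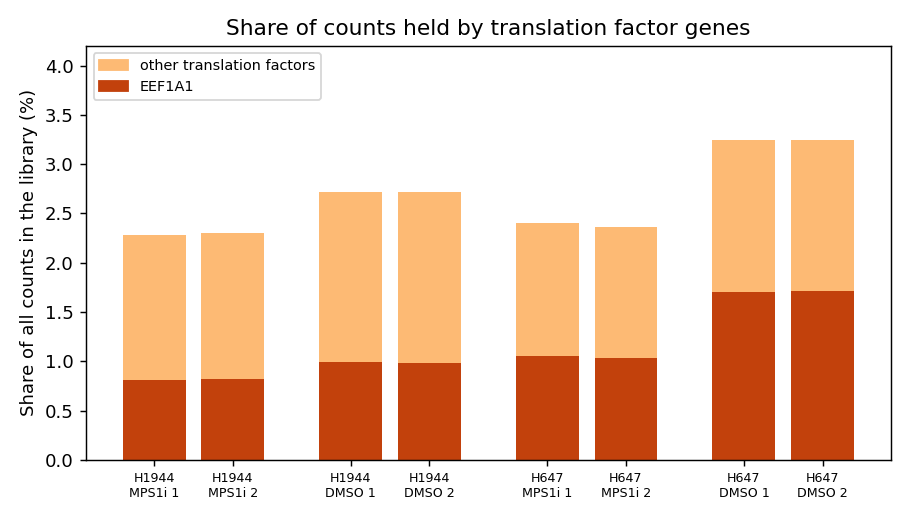
Share of all counts in each library (percent) held by EEF1A1 (dark) and by the other translation factor genes (light), 1 bar per library, with the MPS1i libraries left of the DMSO libraries of each line. Every MPS1i bar is below both DMSO bars of its line: MPS1i reaches 2.28% and 2.3% against 2.72% with DMSO in NCI-H1944, and 2.4% and 2.36% against 3.25% with DMSO in NCI-H647.

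In NCI-H1944, 59 members could be tested; EIF4EBP3, EIF4E1B and EIF1AY did not pass the filter on low counts. Of these 59, 27 fell (45.8%) and 3 rose (5.08%) at an adjusted p under 0.05, and 29 were not called. Among all 16738 genes tested, 12.4% fell and 13.6% rose, 26.0% in all. The members' median log2 fold change was -0.11 and that of all genes 0, and the members' changes ran from -0.65 to 0.22, so most were shifts of modest size: EIF4B was the single called member beyond 1.5-fold. The CPM of the MPS1i and DMSO libraries did not overlap in 47 of the 59 members, against 61.0% of all genes. The 3 rises were the least secure of these calls, since leaving out either DMSO library left 0, leaving out MPS1i replicate 2 left 1 and leaving out MPS1i replicate 1 left 2.

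In NCI-H647, 58 members could be tested; EIF2S3B, EIF4E1B, EIF1AY and EEF1E1-BLOC1S5 did not pass the filter. Of these 58, 32 fell (55.2%) and 13 rose (22.4%), and 13 were not called. Among all 15049 genes tested, 27.0% fell and 27.3% rose, 54.4% in all, so the members' share of falls stood above that of all genes and their share of rises did not. The members' median log2 fold change was -0.18 against 0.01 for all genes, within a range of -1.04 to 1.19, and 12 called members changed by more than 1.5-fold. The groups' CPM did not overlap in 53 of the 58 members, against 76.3% of all genes. Leaving out MPS1i replicate 2 lowered the count of rises to 7 and left 30 falls.

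**Figure D2:**
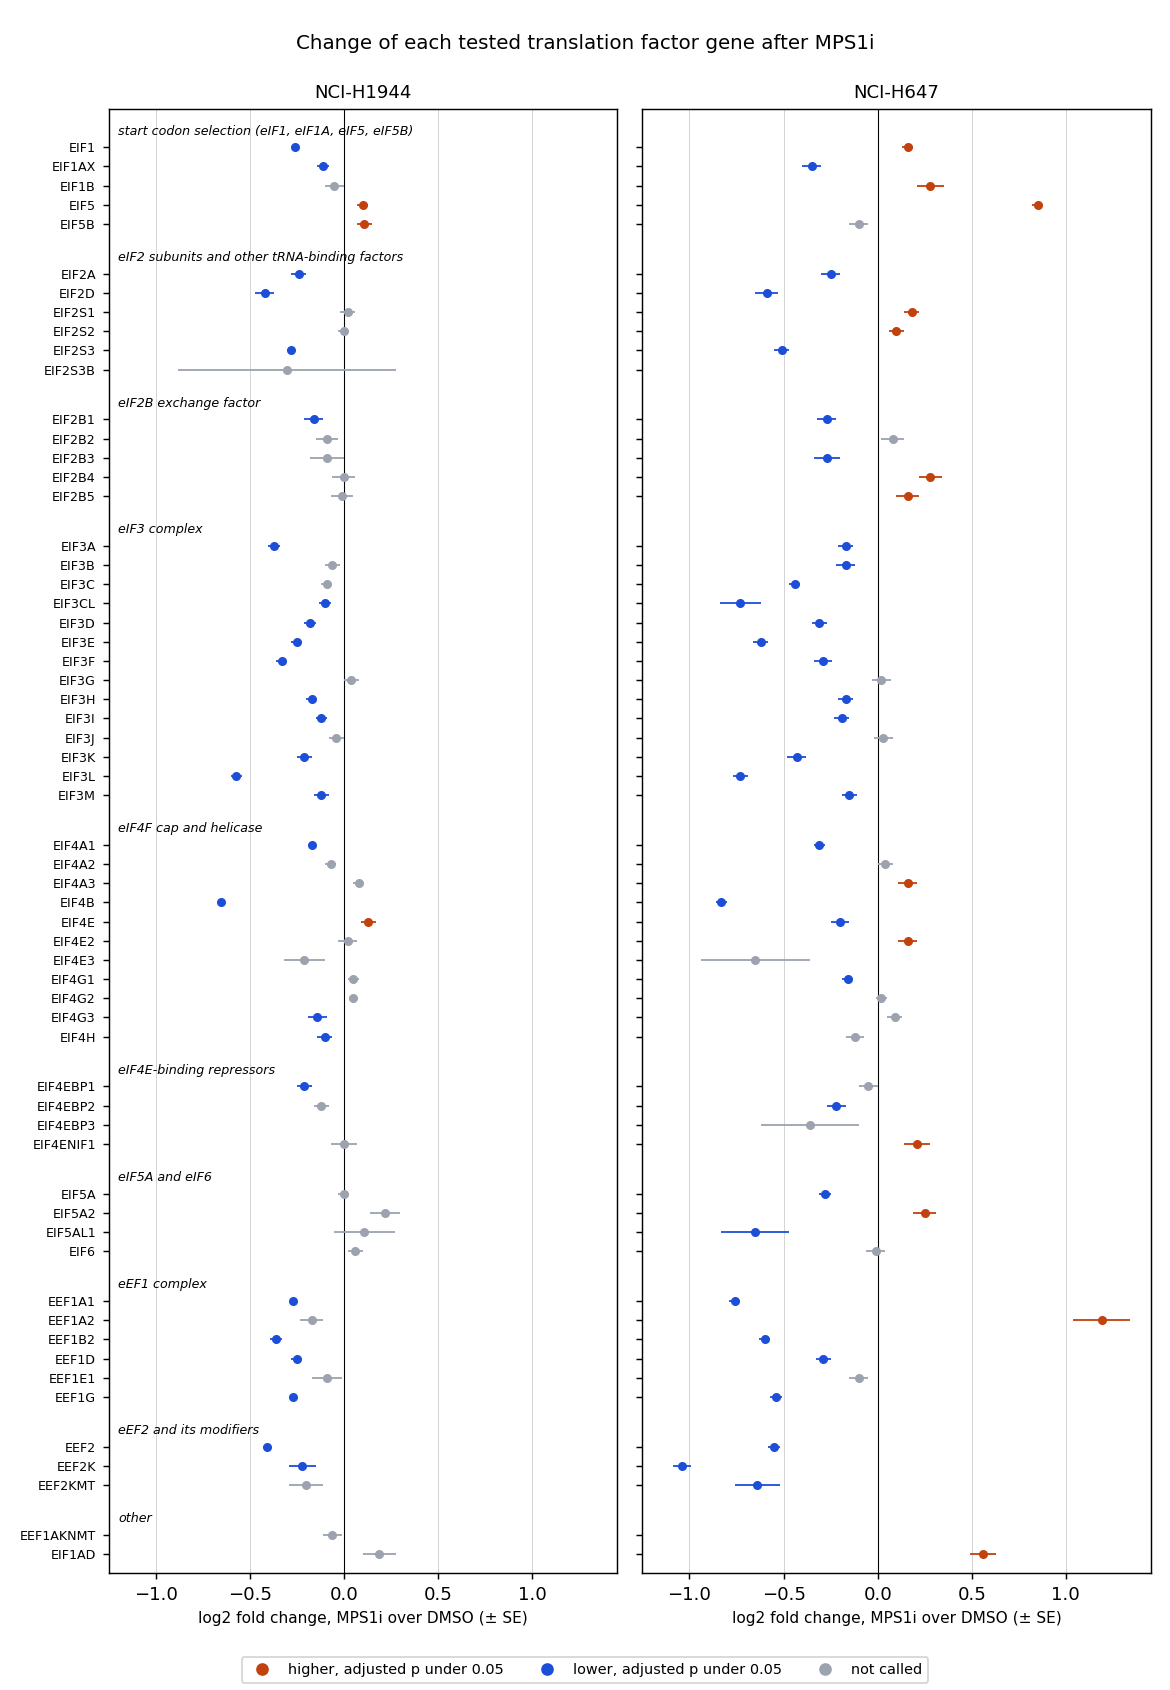
Log2 fold change of MPS1i over DMSO with its standard error (x axis) for every tested translation factor gene, by role, in NCI-H1944 (left) and NCI-H647 (right), coloured by the call. The falls run through eIF3, eEF1 and eEF2 in both lines, EIF4B is the lowest gene in NCI-H1944 at -0.65, and EEF1A2 (1.19) and EEF2K (-1.04) are the ends of the range in NCI-H647.

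Among the elongation factors most calls were falls. Of 6 tested genes of the eEF1 complex, 4 fell and 0 rose in NCI-H1944, and 4 fell and 1 rose in NCI-H647. The share called was 66.7% in NCI-H1944 and 83.3% in NCI-H647, against 26.0% and 54.4% of all genes. EEF1A1, the main eEF1A, had 8133 and 8216 CPM in the MPS1i libraries of NCI-H1944, against 9892 and 9772 CPM in its DMSO libraries (log2 fold change -0.27 ± 0.01 SE, adjusted p = 2.48e-11; later values in this form are the same quantities). In NCI-H647 it had 10379 and 10121 CPM with MPS1i, against 17349.6 and 17369 CPM with DMSO (-0.76 ± 0.03, adjusted p = 2.18e-12). Both MPS1i libraries lay below both DMSO libraries in each line, and the fall in NCI-H647 left 0.59 of the DMSO level. EEF1A1 shares sequence with many processed pseudogenes: 37 pseudogene rows held counts equal to 14.7% of the gene's own in NCI-H1944, and 42 rows 0.463% in NCI-H647. How each table treats shared reads is not stated. The level of EEF1A1 is therefore uncertain, and these shares do not bound the uncertainty.

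EEF1B2, EEF1D and EEF1G encode the proteins of the exchange complex that recharges eEF1A, and all 3 fell in both lines. EEF1B2 had 320.4 and 316 CPM with MPS1i, against 404 and 415 CPM with DMSO, in NCI-H1944 (-0.36 ± 0.03, adjusted p = 7.78e-08), and 270.4 and 268 CPM with MPS1i, against 406 and 410.3 CPM with DMSO, in NCI-H647 (-0.60 ± 0.03, adjusted p = 1.04e-09). EEF1G fell by 0.27 ± 0.02 on the log2 scale in NCI-H1944 and by 0.54 ± 0.03 in NCI-H647, and EEF1D by 0.25 ± 0.03 in NCI-H1944 and by 0.29 ± 0.04 in NCI-H647. EEF1E1, a small protein of the aminoacyl-tRNA synthetase complex that carries the eEF1 name, was not called in either line (adjusted p = 0.438 in NCI-H1944 and 0.112 in NCI-H647).

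EEF1A2, the form of eEF1A normally found in muscle and neurons, went against its paralog in NCI-H647. There it had 11.5 and 9.45 CPM with MPS1i, from 158 and 128 counts, against 4.64 and 4.54 CPM with DMSO, from 89 and 77 counts (1.19 ± 0.15, adjusted p = 9.22e-06). Both MPS1i libraries were above both DMSO libraries, but EEF1A2 remained 0.11% and 0.0932% of the counts of the EEF1A1 and EEF1A2 pair with MPS1i and 0.0267% and 0.0261% with DMSO. In NCI-H1944 it had 27.2 and 29.2 CPM with MPS1i, against 31.7 CPM in both DMSO libraries, and was not called (-0.17 ± 0.06, adjusted p = 0.0679).

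EEF2, the translocase, had 1592 and 1691 CPM with MPS1i, against 2156 and 2215 CPM with DMSO, in NCI-H1944 (-0.41 ± 0.02, adjusted p = 1.84e-09). In NCI-H647 it had 846 and 804 CPM with MPS1i, against 1230 and 1188 CPM with DMSO (-0.55 ± 0.03, adjusted p = 1.86e-09). The groups did not overlap in either line. EEF2K encodes the kinase that phosphorylates and slows eEF2, and it showed the largest fall of any member in NCI-H647. It had 28 and 27.4 CPM with MPS1i, against 57.6 and 56.2 CPM with DMSO, in that line (-1.04 ± 0.05, adjusted p = 3.64e-10), a level of 0.487 of the DMSO libraries. In NCI-H1944 it had 22.2 and 24.3 CPM with MPS1i, against 26.4 and 27.7 CPM with DMSO (-0.22 ± 0.07, adjusted p = 0.0347), which no longer passed without MPS1i replicate 1 (adjusted p = 0.226) and without DMSO replicate 2 (0.15), without the low-count filter (0.138) and by DESeq2 (0.129). EEF2KMT, a lysine methyltransferase of eEF2, fell in NCI-H647 (-0.64 ± 0.12, adjusted p = 0.000412) and was not called in NCI-H1944 (-0.20 ± 0.09, adjusted p = 0.102).

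**Figure D3:**
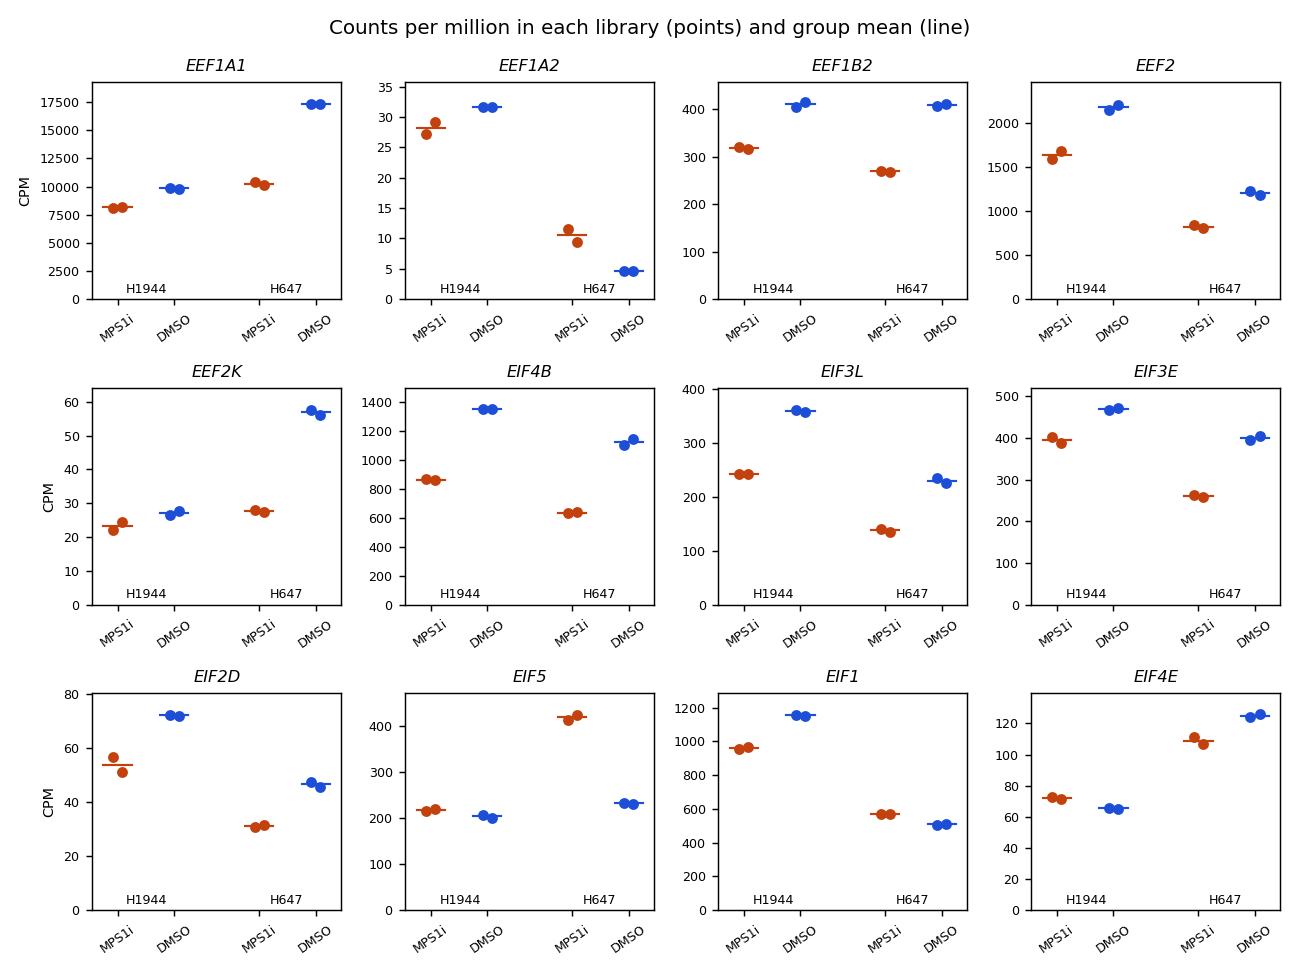
CPM of 12 translation factor genes in each library (points) with the group mean (line), MPS1i left of DMSO in each line, on axes that start at 0. EEF1A1, EEF1B2, EEF2, EEF2K, EIF4B, EIF3L, EIF3E and EIF2D are lower with MPS1i in both lines, while EIF5 is far higher in NCI-H647 (414 and 426 CPM with MPS1i against 234 and 231 CPM with DMSO) and EIF1 and EIF4E go opposite ways in the lines.

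eIF3, the largest initiation factor, showed falls and no rise. Of 14 tested genes, 10 fell in NCI-H1944 (median log2 fold change -0.15) and 12 in NCI-H647 (median -0.24), and 0 rose in either. Calls thus covered 71.4% in NCI-H1944 and 85.7% in NCI-H647, against 26.0% and 54.4% of all genes. EIF3L had 242 and 243 CPM with MPS1i, against 361 and 358 CPM with DMSO, in NCI-H1944 (-0.57 ± 0.03, adjusted p = 3.44e-10), and 141 and 135 CPM with MPS1i, against 234 and 225 CPM with DMSO, in NCI-H647 (-0.73 ± 0.04, adjusted p = 1.79e-09). This subunit binds EIF3K on the periphery of the complex, and EIF3K fell as well (-0.21 ± 0.04 in NCI-H1944 and -0.43 ± 0.05 in NCI-H647). EIF3E, another eIF3 subunit, had 402 and 388 CPM with MPS1i, against 467 and 471 CPM with DMSO, in NCI-H1944 (-0.25 ± 0.03, adjusted p = 6.34e-06), and 263 and 257 CPM with MPS1i, against 394 and 405 CPM with DMSO, in NCI-H647 (-0.62 ± 0.04, adjusted p = 1.22e-09). For both genes every MPS1i library was below every DMSO library of its line.

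EIF3A encodes the core scaffold subunit and was the 1 eIF3 gene whose fall was called greater in NCI-H1944. It had 522 and 529.8 CPM with MPS1i, against 686 and 674 CPM with DMSO, in that line (-0.37 ± 0.03, adjusted p = 1.09e-08), and 323 and 331 CPM with MPS1i, against 359 and 375 CPM with DMSO, in NCI-H647 (-0.17 ± 0.04, adjusted p = 0.00105). EIF3F had 138 and 140.3 CPM with MPS1i, against 174 and 175 CPM with DMSO, in NCI-H1944 (-0.33 ± 0.03, adjusted p = 2.5e-06), and 116 and 110.1 CPM with MPS1i, against 144 and 133 CPM with DMSO, in NCI-H647 (-0.29 ± 0.05, adjusted p = 0.000213). The complex did not move as a block: EIF3G, an RNA-binding subunit, and EIF3J, a loosely bound subunit, were not called in either line, with changes of 0.04 ± 0.04 and -0.04 ± 0.04 in NCI-H1944 and 0.02 ± 0.05 and 0.03 ± 0.05 in NCI-H647.

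EIF3C and EIF3CL are near-identical copies on chromosome 16, so how their shared reads were divided is uncertain. EIF3CL held 48.5% and 48.8% of the counts of the pair in the MPS1i libraries and 48.8% in both DMSO libraries of NCI-H1944, but 2.77% and 3.43% in the MPS1i libraries and 3.99% and 3.52% in the DMSO libraries of NCI-H647. In NCI-H647, EIF3C had 383 CPM in both MPS1i libraries, against 518 and 520.5 CPM with DMSO (-0.44 ± 0.03, adjusted p = 1.79e-08), and EIF3CL had 10.9 and 13.6 CPM with MPS1i, against 21.5 and 19 CPM with DMSO (-0.73 ± 0.11, adjusted p = 4.6e-05). In NCI-H1944, EIF3C had 182 and 183 CPM with MPS1i, against 194 CPM in both DMSO libraries, and was not called (-0.09 ± 0.03, adjusted p = 0.0625). EIF3CL had 171 and 175 CPM with MPS1i, against 185 and 186 CPM with DMSO, in NCI-H1944 (-0.10 ± 0.03, adjusted p = 0.0428), and lost its call without any 1 of the 4 libraries (adjusted p from 0.0595 to 0.182). The pair thus lay lower with MPS1i in every library of both lines, with a call that held under every alternative for NCI-H647 alone.

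EIF4B, which stimulates the helicase eIF4A, had 865 and 859 CPM with MPS1i, against 1349.8 and 1350.2 CPM with DMSO, in NCI-H1944 (-0.65 ± 0.02, adjusted p = 4.2e-13). In NCI-H647 it had 629 and 636 CPM with MPS1i, against 1101 and 1141 CPM with DMSO (-0.83 ± 0.03, adjusted p = 6.68e-12). This was the largest fall among the members in NCI-H1944 and the second largest in NCI-H647. Of the 11 tested cap-binding and helicase genes, 4 fell and 1 rose in NCI-H1944 (45.5% called, against 26.0% of all genes), and 4 fell and 2 rose in NCI-H647, where 54.5% were called, a share near the 54.4% of all genes.

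EIF4A1, the abundant helicase, had 1046 and 1059 CPM with MPS1i, against 1191 and 1174 CPM with DMSO, in NCI-H1944 (-0.17 ± 0.02, adjusted p = 1.63e-05), and 1043 and 999 CPM with MPS1i, against 1279.6 and 1249.6 CPM with DMSO, in NCI-H647 (-0.31 ± 0.03, adjusted p = 6.11e-07). Its paralog EIF4A2 was not called in either line. It had 169.6 and 166 CPM with MPS1i, against 175 and 177 CPM with DMSO, in NCI-H1944 (-0.07 ± 0.03, adjusted p = 0.155), and 259 and 255 CPM with MPS1i, against 251 and 249 CPM with DMSO, in NCI-H647 (0.04 ± 0.04, adjusted p = 0.358). EIF4A2 made up 13.9% and 13.5% of the pair's counts with MPS1i and 12.8% and 13.1% with DMSO in NCI-H1944, and 19.9% and 20.4% with MPS1i and 16.4% and 16.6% with DMSO in NCI-H647, so the balance stood further towards EIF4A2 in every MPS1i library.

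EIF4E, the cap-binding protein, had 72.4 and 71.3 CPM with MPS1i, against 65.9 and 65.2 CPM with DMSO, in NCI-H1944 (0.13 ± 0.04, adjusted p = 0.0328). This rise was lost without MPS1i replicate 1 (adjusted p = 0.118), DMSO replicate 1 (0.13) or DMSO replicate 2 (0.194), with library totals only (0.0503), without the low-count filter (0.0679) and by DESeq2 (0.114). In NCI-H647 EIF4E fell, with 111 and 107 CPM with MPS1i, against 124 and 126 CPM with DMSO (-0.20 ± 0.05, adjusted p = 0.00205). Pseudogene rows of EIF4E held counts equal to 12.2% of the gene's own in NCI-H1944 and 2.4% in NCI-H647. EIF4G1, the scaffold that joins eIF4E to eIF4A, had 545 and 558 CPM with MPS1i, against 534 and 531 CPM with DMSO, in NCI-H1944 and was not called (0.05 ± 0.03, adjusted p = 0.187), and fell in NCI-H647, with 602 and 585 CPM with MPS1i, against 661 and 662 CPM with DMSO (-0.16 ± 0.03, adjusted p = 0.000542).

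Of the tested proteins that bind and hold back eIF4E, 1 of 3 fell and 0 rose in NCI-H1944, and 1 of 4 fell and 1 rose in NCI-H647. These shares, 33.3% called in NCI-H1944 and 50% in NCI-H647, compare with 26.0% and 54.4% of all genes. EIF4EBP1, which blocks eIF4E until mTORC1 phosphorylates it, had 88.3 and 94.7 CPM with MPS1i, against 103 and 108 CPM with DMSO, in NCI-H1944 (-0.21 ± 0.04, adjusted p = 0.00194), a call lost without the filter on low counts (0.0694). In NCI-H647 it had 63.4 and 61.2 CPM with MPS1i, against 65.9 and 63.3 CPM with DMSO, and was not called (-0.05 ± 0.05, adjusted p = 0.418), with the groups overlapping. EIF4EBP2, its homolog, fell in NCI-H647 (-0.22 ± 0.05, adjusted p = 0.00124) and was not called in NCI-H1944 (-0.12 ± 0.04, adjusted p = 0.0706). EIF4ENIF1, the transporter that carries eIF4E into the nucleus, rose in NCI-H647 (0.21 ± 0.07, adjusted p = 0.0199), though not by DESeq2 (0.22), and had a change of 0.00 ± 0.07 in NCI-H1944. EIF4EBP3, tested in NCI-H647 alone, was not called (-0.36 ± 0.26, adjusted p = 0.269).

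EIF5, the GTPase-activating protein of eIF2, had 414 and 426 CPM with MPS1i, against 234 and 231 CPM with DMSO, in NCI-H647 (0.85 ± 0.03, adjusted p = 2.52e-11). That is 1.8-fold the DMSO level, and it was the second largest rise among the members of that line after EEF1A2, at a far higher level. In NCI-H1944 EIF5 had 216 and 221 CPM with MPS1i, against 207 and 201 CPM with DMSO (0.10 ± 0.03, adjusted p = 0.0397), a rise lost without MPS1i replicate 2 (adjusted p = 0.135), DMSO replicate 1 (0.0833) or DMSO replicate 2 (0.292), with library totals only (0.063) and without the low-count filter (0.0992). EIF5 was the single member called higher in both lines.

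EIF1, which keeps the scanning ribosome open until a good start codon is met, went opposite ways. It had 957 and 968 CPM with MPS1i, against 1157 and 1152 CPM with DMSO, in NCI-H1944 (-0.26 ± 0.02, adjusted p = 8.85e-08), and 569 and 572 CPM with MPS1i, against 507 and 512 CPM with DMSO, in NCI-H647 (0.16 ± 0.03, adjusted p = 0.000367). EIF1AX, which binds beside eIF1, fell in both lines (-0.11 ± 0.03 in NCI-H1944 and -0.35 ± 0.05 in NCI-H647). Its fall in NCI-H1944 was not called under every alternative. Pseudogene rows of EIF1AX held counts equal to 11.1% of the gene's own in NCI-H1944 and 0.736% in NCI-H647. Of the 5 tested genes of start codon choice, 2 fell and 2 rose in NCI-H1944, and 1 fell and 3 rose in NCI-H647. That is 80% called in each line, against 26.0% of all genes in NCI-H1944 and 54.4% in NCI-H647. By the DESeq2 Wald test the rises of EIF5B in NCI-H1944 (adjusted p = 0.0733) and of EIF1B in NCI-H647 (0.0688) were not called.

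The subunits of eIF2 did not move together. EIF2S1, the alpha subunit whose phosphorylation reduces initiation in stress, had 112 and 111 CPM with MPS1i, against 112 and 108 CPM with DMSO, in NCI-H1944 (0.02 ± 0.04, adjusted p = 0.75). In NCI-H647 it had 184 and 191 CPM with MPS1i, against 168 and 164 CPM with DMSO (0.18 ± 0.04, adjusted p = 0.00206), and this call just missed the threshold without MPS1i replicate 2 (adjusted p = 0.0502). EIF2S3, the gamma subunit that binds GTP and the tRNA, fell in both lines. It had 718 and 700.1 CPM with MPS1i, against 862 and 859.5 CPM with DMSO, in NCI-H1944 (-0.28 ± 0.02, adjusted p = 1.54e-07), and 192 and 186 CPM with MPS1i, against 267 and 272 CPM with DMSO, in NCI-H647 (-0.51 ± 0.04, adjusted p = 3.14e-08). EIF2S2, the beta subunit, had changes of 0.00 ± 0.03 in NCI-H1944 (not called) and 0.10 ± 0.04 in NCI-H647 (adjusted p = 0.0467).

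EIF2D, a tRNA-binding factor that acts in ribosome recycling and in initiation without eIF2, fell in both lines. It had 56.7 and 51 CPM with MPS1i, against 72.3 and 72.1 CPM with DMSO, in NCI-H1944 (-0.42 ± 0.05, adjusted p = 1.2e-05), and 30.6 and 31.5 CPM with MPS1i, against 47.5 and 45.7 CPM with DMSO, in NCI-H647 (-0.59 ± 0.06, adjusted p = 3.53e-07). EIF2A, a separate initiator tRNA-binding protein that is not a subunit of eIF2, fell by 0.24 ± 0.04 on the log2 scale in NCI-H1944 and by 0.25 ± 0.05 in NCI-H647. Of the 5 subunit genes of eIF2B, 1 fell and 0 rose in NCI-H1944, and 2 fell (EIF2B1 and EIF2B3, both -0.27) and 2 rose (EIF2B4, 0.28 ± 0.06, and EIF2B5, 0.16 ± 0.06) in NCI-H647. The share called was 20% in NCI-H1944 and 80% in NCI-H647, against 26.0% and 54.4% of all genes. By the DESeq2 Wald test 0 of the 5 were called in NCI-H1944, and 1 fell and 1 rose in NCI-H647. There EIF2B3 (adjusted p = 0.0805) and EIF2B5 (0.329) were not called by that test.

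EIF5A, which carries the modified lysine hypusine and helps the ribosome through difficult sequences, had 627 and 643 CPM with MPS1i, against 633 and 641 CPM with DMSO, in NCI-H1944 (0.00 ± 0.03, adjusted p = 0.925), with overlapping groups. In NCI-H647 it had 626 and 623 CPM with MPS1i, against 762 and 753 CPM with DMSO (-0.28 ± 0.03, adjusted p = 1.35e-06). EIF5A2, its low-abundance paralog, had 36.1 and 35.6 CPM with MPS1i, against 30.5 and 29.9 CPM with DMSO, in NCI-H647 (0.25 ± 0.06, adjusted p = 0.00196), a call that the DESeq2 Wald test did not make (0.0907). In NCI-H1944 EIF5A2 had 18.9 and 20.4 CPM with MPS1i, against 16.6 and 17.1 CPM with DMSO (0.22 ± 0.08, adjusted p = 0.0537). The share of EIF5A2 in the pair was thus 5.46% and 5.41% with MPS1i and 3.84% and 3.82% with DMSO in NCI-H647. EIF5AL1, a copy so close to EIF5A that its reads are uncertain, had 3.56 and 4.21 CPM with MPS1i, against 5.84 and 6.37 CPM with DMSO, in NCI-H647 (-0.65 ± 0.18, adjusted p = 0.00625), a call lost without MPS1i replicate 1 (adjusted p = 0.0533) and by DESeq2 (0.0775). EIF6, which keeps the ribosomal subunits apart, was not called: it had 125 and 129 CPM with MPS1i, against 121 and 123 CPM with DMSO, in NCI-H1944 (adjusted p = 0.278), and 128 and 130.5 CPM with MPS1i, against 133 and 126 CPM with DMSO, in NCI-H647 (adjusted p = 0.923).

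Levels between genes were compared per kilobase of merged exons (RPKM), with lengths from an annotation of the same assembly. EEF1A1 ranked first in both lines, with 1374 RPKM with MPS1i and 1653 RPKM with DMSO in NCI-H1944, and 1723 RPKM with MPS1i and 2918 RPKM with DMSO in NCI-H647. EEF1G and EEF2 followed, with 508 and 408 RPKM with MPS1i and 611 and 543 RPKM with DMSO in NCI-H1944, and 455 and 205 RPKM with MPS1i and 664 and 300.2 RPKM with DMSO in NCI-H647. The next gene by DMSO level was EIF1 in NCI-H1944 (266 RPKM with MPS1i and 319 with DMSO) and EIF5A in NCI-H647 (222 RPKM with MPS1i and 269 with DMSO). In the MPS1i libraries of NCI-H647 EEF2, at 205 RPKM, stood below EIF5A, at 222 RPKM, the reverse of their order with DMSO.

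Whether the change differed between the lines was tested as the line-by-treatment term of a joint fit. Among 57 members testable in both lines, 30 differed (52.6%), 21 with the change in NCI-H1944 above that in NCI-H647 and 9 with it below, while 40.1% of the 12887 genes so tested differed (22.7% above and 17.4% below). When only library totals were used for scaling, the split was 17 above and 14 below. Falls were called in both lines for 23 members and a rise in both for 1, EIF5. EIF4E and EIF1 were called in opposite directions, and 8 members were called in neither line. Calls shared by the lines were not counted over all genes, so these counts have no background and are a description. Across the 57 genes, which are not independent replicates, the changes in the lines had a Pearson r of 0.57 and a Spearman rho of 0.629, as a description.

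EIF5 gave the smallest adjusted p of these differences, a change lower in NCI-H1944 by 0.73 ± 0.04 on the log2 scale (difference -0.73, adjusted p = 1.32e-11), followed by EIF1 (-0.40 ± 0.04, adjusted p = 7.04e-08). The difference was 0.52 ± 0.06 for EEF1A1 (adjusted p = 1.21e-07), 0.84 ± 0.09 for EEF2K (adjusted p = 1.5e-07), 0.37 ± 0.04 for EIF3C (adjusted p = 1.67e-07) and 0.39 ± 0.04 for EIF3E (adjusted p = 2.45e-07). These 4 genes fell further in NCI-H647. By size, the difference was greatest for EEF1A2, at -1.33 ± 0.15 (adjusted p = 2.55e-07). The difference was small for some of the strongest falls: it was 0.20 ± 0.04 for EIF4B and 0.19 ± 0.05 for EIF3L, the second of which was 0.11 and not called when only library totals were used (adjusted p = 0.068), and for EIF2D it was 0.19 ± 0.09 and not called (adjusted p = 0.11).

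**Figure D4:**
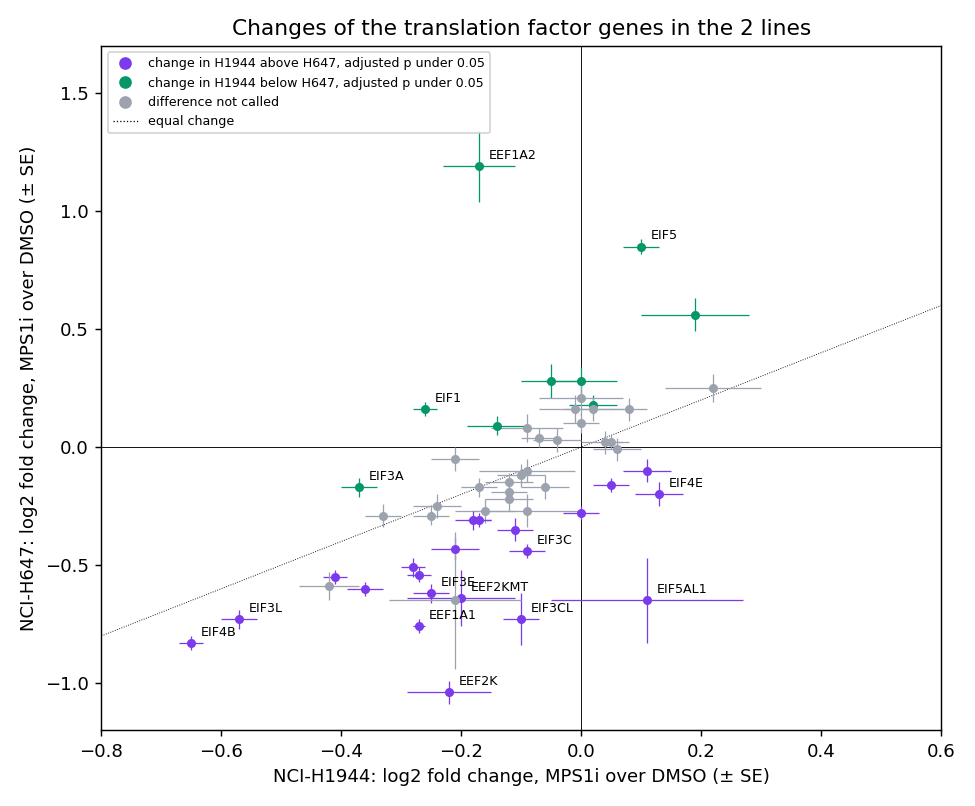
Log2 fold change of MPS1i over DMSO in NCI-H1944 (x axis) and NCI-H647 (y axis) with standard errors, 1 point per translation factor gene tested in both lines (n = 57), coloured by whether the difference between lines passed an adjusted p under 0.05; the dotted line marks equal change. EEF1A2 and EIF5 lie far above the line, EEF2K and EEF1A1 below it, and EIF4B and EIF3L are low in both lines.

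The tract shown near the start sites was held by 21 of the 51 matched members (41.2%), by 52 of 62 matched cytosolic ribosomal protein genes (83.9%) and by 23.5% of 35116 promoters in the table. In NCI-H1944, 14 of the 20 tested members with a tract fell and 0 rose, with a median log2 fold change of -0.20, and 6 of the 27 without it fell and 3 rose, with a median of -0.05. In NCI-H647, 11 of 19 with it fell and 3 rose (median -0.19), and 14 of 28 without it fell and 8 rose (median -0.18). The medians were thus apart in NCI-H1944 and nearly equal in NCI-H647, a description without a test. The tract was defined after values were seen, so the contrast is no evidence of a link between tract and fall. Members without a matched promoter are in neither group. Among them are EIF3L, EIF3A, EIF3E and EEF1D, which fell in both lines, and EEF1A2 and EIF2S2, which rose in NCI-H647. The rise of EIF2S2 was not called by the DESeq2 Wald test (adjusted p = 0.164). EEF1B2 and EEF1G, which fell in both lines, hold no tract by this definition. Other start sites were not examined, so a missing tract here need not mean a missing TOP motif. EIF2B5 and EIF4E2, which rose in NCI-H647 by edgeR, hold a tract. The DESeq2 Wald test did not call these rises (adjusted p = 0.329 for EIF2B5 and 0.0712 for EIF4E2). The tract as defined and the calls thus did not coincide gene by gene.

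Within the 300-base promoters, the E-box CACGTG was found in 12 of the 51 members (23.5%) and in 7.26% of all promoters, and the NRF1 motif (GCGCA, any 1 base, GCGC) in 9 (17.6%) and in 5.78%. The interferon-response motif (GAAA, any 2 bases, GAAA) was found in 4 members (7.84%) against 3.57% of all promoters, and the CRE TGACGTCA in 1 (1.96%) against 1.85%. Among the 62 matched ribosomal protein promoters, the shares were 4.84% for the E-box and 9.68% for the NRF1 motif. They were 6.45% for the interferon-response motif and 4.84% for the CRE. The set of all promoters is not limited to genes tested here. Both strands were searched, and none of these motifs contains another. A match describes the letters and not a bound site.

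The cytosolic ribosomal proteins, whose mRNAs carry TOP tracts as a class, gave the highest share of falls among the lists of related genes. Of 78 tested, 73 fell and 0 rose in NCI-H1944 (median -0.19), and 73 fell and 1 rose in NCI-H647 (median -0.39). Calls covered 93.6% in NCI-H1944 and 94.9% in NCI-H647, against 26.0% and 54.4% of all genes. RPL3, a large-subunit protein, averaged 1521 CPM with MPS1i and 2141 CPM with DMSO in NCI-H1944 (-0.49 ± 0.02, adjusted p = 3.72e-12), and 481 CPM with MPS1i and 991 CPM with DMSO in NCI-H647 (-1.04 ± 0.04, adjusted p = 2.73e-12). The median of the translation factors lay between those of these genes and of all genes in both lines, at -0.11 in NCI-H1944 and -0.18 in NCI-H647.

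**Figure D5:**
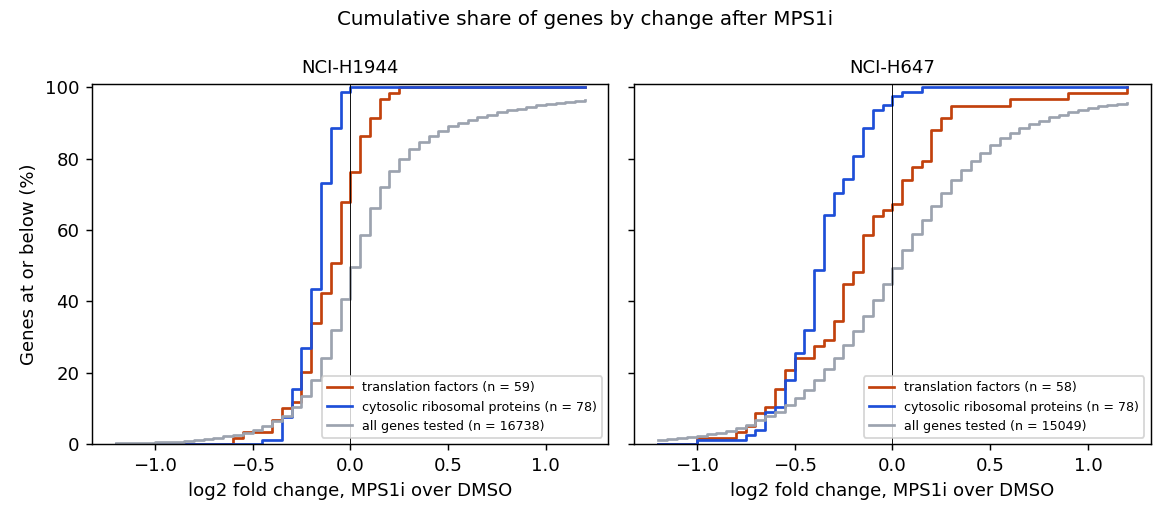
Cumulative percentage of genes (y axis) at or below a log2 fold change of MPS1i over DMSO (x axis) for translation factors, cytosolic ribosomal proteins and all genes tested, in NCI-H1944 (left) and NCI-H647 (right). In NCI-H1944 the median is -0.11 for translation factors, -0.19 for ribosomal proteins and 0 for all genes. In NCI-H647 it is -0.18 for translation factors, -0.39 for ribosomal proteins and 0.01 for all genes, while in the lower tail the curves cross: at -0.6 in NCI-H647 the share is 15.5% of translation factors, 10.3% of ribosomal proteins and 9.12% of all genes.

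The genes that regulate eIF2 included the strongest rises among these lists. Of 10 tested eIF2 kinases and phosphatase subunits, 3 rose and 3 fell in NCI-H1944 (median 0.03), and 5 rose and 4 fell in NCI-H647 (median 0.06). That is 60% called in NCI-H1944 and 90% in NCI-H647, against 26.0% and 54.4% of all genes. EIF2AK2 encodes PKR, the kinase of eIF2 that is activated by double-stranded RNA and induced by interferon. It had 423 and 405 CPM with MPS1i, against 123 and 122 CPM with DMSO, in NCI-H1944 (1.75 ± 0.03, adjusted p = 3.77e-16), and 463 and 469 CPM with MPS1i, against 214 and 223 CPM with DMSO, in NCI-H647 (1.09 ± 0.04, adjusted p = 1.51e-12). PPP1R15A, or GADD34, directs the phosphatase that reverses eIF2 phosphorylation. It had 163 and 165 CPM with MPS1i, against 109 CPM in both DMSO libraries, in NCI-H1944 (0.59 ± 0.04, adjusted p = 2.36e-09), and 97.9 and 96.3 CPM with MPS1i, against 23.5 and 25.1 CPM with DMSO, in NCI-H647 (2.0 ± 0.06, adjusted p = 3.02e-13). EIF2AK3, the kinase PERK of the endoplasmic reticulum, rose in NCI-H647, with means of 54.7 CPM with MPS1i and 32.1 CPM with DMSO (0.77 ± 0.06, adjusted p = 2.3e-08), and was not called in NCI-H1944 (adjusted p = 0.802). The kinase PKR and the phosphatase subunit GADD34 rose in the same libraries, and phosphorylation of eIF2 itself was not measured.

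Of 11 initiation helpers, which include the poly(A)-binding proteins and helicases, 2 rose and 2 fell in NCI-H1944 (median -0.05), and 1 rose and 6 fell in NCI-H647 (median -0.17). The share called was 36.4% in NCI-H1944 and 63.6% in NCI-H647, against 26.0% and 54.4% of all genes. PABPC1, the main cytoplasmic poly(A)-binding protein, fell by 0.34 ± 0.02 on the log2 scale in NCI-H1944 and by 0.56 ± 0.03 in NCI-H647, and PABPC4 by 0.33 ± 0.03 in NCI-H1944 and by 0.68 ± 0.06 in NCI-H647. DDX3X, a helicase for structured leaders, rose in NCI-H1944 (0.13 ± 0.03, adjusted p = 0.000914) and fell in NCI-H647 (-0.34 ± 0.03, adjusted p = 7.66e-07). Of 9 release and recycling factors, 1 rose and 1 fell in NCI-H1944 (median -0.07), and 1 rose and 4 fell in NCI-H647 (median -0.08). Their shares called, 22.2% in NCI-H1944 and 55.6% in NCI-H647, were near the 26.0% and 54.4% of all genes. The list includes EIF2D, a member described above, which was the fall in NCI-H1944 and also fell in NCI-H647. PELO, which rescues stalled ribosomes, was the rise in both lines (0.21 ± 0.05 in NCI-H1944 and 0.53 ± 0.06 in NCI-H647), and the recycling ATPase ABCE1 fell in NCI-H647 (-0.44 ± 0.04, adjusted p = 3.6e-07).

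Of 12 genes that link mTORC1 to eIF4E, 0 rose and 5 fell in NCI-H1944 (median -0.11), and 4 rose and 4 fell in NCI-H647 (median 0.02). Calls covered 41.7% in NCI-H1944 and 66.7% in NCI-H647, against 26.0% and 54.4% of all genes. DDIT4, an inhibitor of mTORC1, averaged 452 CPM with MPS1i and 509 CPM with DMSO in NCI-H1944 (-0.17 ± 0.03, adjusted p = 0.000642), and 406 CPM with MPS1i and 644 CPM with DMSO in NCI-H647 (-0.67 ± 0.04, adjusted p = 1.38e-09). MLST8, a subunit of the mTOR complexes, fell in both lines (-0.39 ± 0.05 in NCI-H1944 and -0.55 ± 0.08 in NCI-H647), and MKNK2, a kinase of eIF4E, rose in NCI-H647 (0.47 ± 0.05, adjusted p = 1.62e-06).

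Of 9 hypusine and diphthamide enzymes, which modify eIF5A and eEF2, 0 rose and 3 fell in NCI-H1944 (median -0.08), and 4 rose and 3 fell in NCI-H647 (median 0.18). The share called was 33.3% in NCI-H1944 and 77.8% in NCI-H647, against 26.0% and 54.4% of all genes. The share in NCI-H647 depended on the test. By the DESeq2 Wald test 1 of the 9 rose and 1 fell there, while 2666 of all 15049 genes rose and 2780 fell. DPH5, a methyltransferase of the diphthamide pathway, fell in both lines (-0.45 ± 0.07 in NCI-H1944 and -0.74 ± 0.06 in NCI-H647). Among the eEF1A methyltransferases, EEF1AKMT2 fell in both lines (-0.34 ± 0.09 in NCI-H1944 and -0.61 ± 0.07 in NCI-H647), and it was the single call among 4 tested in NCI-H1944 (median -0.18) and 5 tested in NCI-H647 (median -0.07). That is 25% in NCI-H1944, near the 26.0% of all genes, and 20% in NCI-H647, below the 54.4% of all genes.

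Of 22 cytosolic aminoacyl-tRNA synthetases, 1 rose and 10 fell in NCI-H1944 (median -0.09), and 3 rose and 13 fell in NCI-H647 (median -0.15). The share called was 50% in NCI-H1944 and 72.7% in NCI-H647, against 26.0% and 54.4% of all genes. The rise in NCI-H1944 was WARS1, the tryptophanyl synthetase, which is induced by interferon-gamma and averaged 648 CPM with MPS1i and 439 CPM with DMSO (0.56 ± 0.03, adjusted p = 8.4e-11). WARS1 also rose in NCI-H647, with means of 157 CPM with MPS1i and 119 CPM with DMSO (0.40 ± 0.05, adjusted p = 3.66e-06). IARS1, the isoleucyl synthetase, fell in both lines (-0.31 ± 0.02 in NCI-H1944 and -0.52 ± 0.04 in NCI-H647), and FARSB, a subunit of the phenylalanyl synthetase, fell in NCI-H647 (-0.79 ± 0.06, adjusted p = 1.39e-08). The 9 mitochondrial translation factors gave 0 rises and 2 falls in NCI-H1944 (median -0.09) and 1 rise and 6 falls in NCI-H647 (median -0.26). Calls covered 22.2% of them in NCI-H1944 and 77.8% in NCI-H647, against 26.0% and 54.4% of all genes. MTIF2, the mitochondrial initiation factor, fell in both lines (-0.24 ± 0.05 in NCI-H1944 and -0.48 ± 0.05 in NCI-H647), and MTRF1L, a mitochondrial release factor, was the rise in NCI-H647 (0.79 ± 0.06, adjusted p = 5.33e-08).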

How the data were processed

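RNA-seq read counts per gene were analysed in 8 libraries, 2 in each of 4 groups set by the sample titles. The values are the authors' deposited counts, whole numbers that are not normalized, in 1 table per line. The submitters' processing notes name, with no role or order, Trim Galore, Trimmomatic and cutadapt, STAR and HISAT2, featureCounts and StringTie, and GRCh38; which tool made which table is not stated, nor are the versions or the strand setting, so overlapping and near-identical genes are uncertain.

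Within each line, genes kept by filterByExpr (minimum count 10, minimum total 15) were scaled by TMM and tested with the quasi-likelihood F test of edgeR 4.0.16 (R 4.3.3), with Benjamini-Hochberg adjustment over all genes tested and a threshold of 0.05. Standard errors were the size of the log2 fold change over the square root of F. CPM are counts per 1000000 of the library total times its TMM factor, while shares of counts use the total alone. Lines were fitted apart, and their difference was tested as the line-by-treatment interaction over the 8 libraries together, on genes passing the filter in both. The biological coefficient of variation was 3.99% in NCI-H1944 and 3.54% in NCI-H647. Totals of 38904473 to 43661342 counts in NCI-H1944 and 13358514 to 19550859 in NCI-H647 make low genes less precise in NCI-H647. The tests were checked on simulated counts.

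Values per library are given for the 8 called members of largest change in each line, the 6 smallest interaction p-values and a set list; of each list of related genes, up to 3 of smallest adjusted p are named, besides a few added to show genes that were not called. Members and lists were chosen with earlier results of these data known, and the definition of the TOP-like tract after values were seen. Alternatives were DESeq2 1.42.0 size factors, library totals, no low-count filter, the DESeq2 Wald test, a replicate block and leaving out each library.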

Additional observations from a re-analysis of the deposited data

Results flagged for a closer look

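The change after MPS1i differed between the lines for 30 of 57 members, and 20 of these are among those with values given per library, by the edgeR interaction test at an adjusted p under 0.05. Differences are the log2 change in NCI-H1944 minus that in NCI-H647. They were negative for EEF1A2 (-1.33), EIF5 (-0.73), EIF1 (-0.40), EIF3A (-0.18) and EIF2S1 (-0.14). They were positive for EEF2K (0.84), EIF5AL1 (0.79), EIF3CL (0.66), EEF1A1 (0.52), EIF3E (0.39), EIF3C (0.37) and EIF4E (0.36). Smaller positive differences were found for EIF5A (0.30), EEF1B2 (0.26), EIF2S3 (0.25), EIF4G1 (0.23), EIF4B (0.20), EIF3L (0.19), EIF4A1 (0.16) and EEF2 (0.16). The lines were prepared with different kits and counted in separate tables, and a difference by line and a difference by kit cannot be told apart. The EEF2 difference was lost without MPS1i replicate 2 or DMSO replicate 1 of either line (adjusted p from 0.0567 to 0.114). That of EIF2S1 was lost without MPS1i replicate 2 of either line, DMSO replicate 1 of NCI-H1944 or DMSO replicate 2 of NCI-H647 (0.059 to 0.172). That of EIF5AL1 was lost without MPS1i replicate 1 of either line or DMSO replicate 2 of NCI-H647 (0.067 to 0.0951). With library totals only, the differences were 0.08 for EEF2 (adjusted p = 0.226), 0.11 for EIF3L (0.068) and 0.082 for EIF4A1 (0.155), and by DESeq2 those of EIF2S1 (0.0545) and EIF5AL1 (0.0788) were not called.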

How the results depend on the processing

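No call among the members changed direction under any alternative. Of the 27 falls in NCI-H1944, 18 were called in all 9 alternatives, and of the 32 in NCI-H647, 29. Of the rises, 0 of 3 in NCI-H1944 and 5 of 13 in NCI-H647 (EEF1A2, EIF1, EIF1AD, EIF2B4 and EIF5) were called in every one. Rises in NCI-H1944 numbered 0 with library totals only, 0 without the low-count filter and 1 by DESeq2, and 0 to 2 with 1 library left out. Rises in NCI-H647 numbered 8 without the filter, 6 by DESeq2, and 7 to 11 with 1 library left out. In the lists of related genes, rises in NCI-H647 numbered 13 by DESeq2, against 20. Members whose change was lower in NCI-H1944 numbered 14 with library totals only, against 9. The cause of these shifts was not tested. For every role or list of related genes with 0 rises, the counts by DESeq2 and at an unadjusted edgeR p under 0.05 were also 0, except for unadjusted rises of EIF5A2 and of EIF1AD in NCI-H1944. Falls with 1 library left out numbered 20 to 23 in NCI-H1944 and 30 to 33 in NCI-H647. Leaving out a library leaves 1 in its group, which is assumed to vary like the other group. Deviations of same-numbered libraries were nearly uncorrelated over all genes tested (0.0366 in NCI-H1944 and -0.0315 in NCI-H647). With 2 libraries per group, this cannot exclude a pairing by replicate number. A replicate block gave 4 rises and 29 falls in NCI-H1944, 13 and 34 in NCI-H647, and 22 above and 9 below between the lines. Low members such as EEF1A2 and EIF5AL1 in NCI-H647 rest on few counts.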
